A study of Mus musculus with 6 samples.

Results

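The genes described here were grouped around the loss of nuclei and organelles in the lens fiber cell. They are the acid nuclease gene Dnase2b, its neighbour Uox, taken for its chromosomal position alone, the related nuclease genes Dnase2a and Dnase1, the lamin genes Lmna and Lmnb1, the phospholipase gene Plaat3, the lipoxygenase gene Alox15, the autophagosome transport gene Fyco1 and the mitophagy receptor gene Bnip3. They were chosen by name, and every probe set annotated to any of the 10 genes was taken, which gave 18 of 45037 probe sets. All 10 genes were among the 18193 genes measured by a probe set with a single symbol. Total RNA was taken from the intact lens of Balb/c pups aged 2 days, and the transgenic genotype and the wild-type genotype were each measured on 3 Affymetrix arrays. The design text gives 12 lenses per genotype without saying how they were divided among the replicates or whether replicates were separate animals. The p-values therefore cover only the scatter among these arrays, part of which may be technical. The transgene, its promoter and the number of founder lines are not named in the labels. In the text below, T1 to T3 are the transgenic replicates and W1 to W3 the wild-type replicates.

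A lens fiber cell grows out of the lens epithelium, fills with crystallin and then removes its nucleus, mitochondria and endoplasmic reticulum, so that light can pass. DNase IIβ, the product of Dnase2b, is a lysosomal acid nuclease that degrades the chromatin of the fiber nucleus, after the nuclear lamina has been taken apart. PLAAT phospholipases act on the membranes of the organelles, and 15-lipoxygenase oxidises membrane lipids, an activity best known from the organelle loss of the maturing red blood cell. FYCO1 links autophagosomes to microtubule motors, and BNIP3 marks mitochondria for autophagy.

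The arrays carried lens RNA. The means of all 11 lens fiber markers measured, crystallins included, lay above the median of all probe sets, 5.34 on the log2 scale used throughout. Foxe3, which encodes a forkhead factor of the lens epithelium, stood at 13.33, 13.42 and 13.39 in T1, T2 and T3 and at 8.54, 8.86 and 8.82 in W1, W2 and W3. T3 and, for pigment cell markers, T2 stood apart. T3 carried transcripts of other tissues: its 13 skin keratinocyte markers summed to 32236 on the linear scale against 2033 to 3172 in the other 5 arrays, its 10 skeletal muscle markers to 8493 against 427 to 642, and its 7 fibroblast markers to 12756 against 824 to 1180. T2 had the highest sum of the 9 retinal pigment epithelium and melanocyte markers, 5109 against 1701 to 2611 in the other 5 arrays. For some values named below that moved by over 1.5 times without T3, the value without it is given beside them. Other named values, among them those of Acsl4, Gpx4, Ctsb, Atl3 and Slc22a19, also moved by over 1.5 times without T3. Values printed without such a figure are therefore not shown to be free of T3. In a whole lens, fewer cells of a type and less RNA per cell cannot be told apart.

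The start regions of the 3 members with the largest falls that have an entry in the RefSeq promoter table of GRCm38.p6 are shown because Dnase2b and Uox, whose transcripts fell together, share a chromosomal position. Each is the 250 bases before the annotated start, 5′ to 3′ on the gene's strand. Capitals mark matches to a paired heat shock element (GAANNTTC or TTCNNGAA, each of which reads the same on both strands) and to the TATA-like letters ATAAAA between 40 and 20 bases before the start, searched on the gene's strand. Dnase2b lies on the minus strand at chr3:146615599-146615848, Uox on the plus strand at chr3:146596899-146597148 and Plaat3 on the plus strand at chr19:7557209-7557458.
Dnase2b: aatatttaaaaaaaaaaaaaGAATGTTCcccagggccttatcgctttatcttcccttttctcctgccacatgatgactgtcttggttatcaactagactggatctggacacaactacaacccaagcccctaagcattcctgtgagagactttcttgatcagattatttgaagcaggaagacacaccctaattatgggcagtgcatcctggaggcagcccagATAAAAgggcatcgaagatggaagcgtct
Uox: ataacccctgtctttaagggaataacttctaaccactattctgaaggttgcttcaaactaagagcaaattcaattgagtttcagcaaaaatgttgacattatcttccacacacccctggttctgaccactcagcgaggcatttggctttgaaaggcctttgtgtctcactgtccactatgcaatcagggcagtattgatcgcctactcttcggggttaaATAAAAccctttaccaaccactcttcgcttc
Plaat3: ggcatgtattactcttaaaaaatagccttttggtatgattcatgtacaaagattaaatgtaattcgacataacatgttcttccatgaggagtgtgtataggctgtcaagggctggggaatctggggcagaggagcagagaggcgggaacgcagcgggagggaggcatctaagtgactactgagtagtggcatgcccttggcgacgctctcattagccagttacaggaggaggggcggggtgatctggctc

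The Dnase2b region holds 1 paired heat shock element, GAATGTTC, which begins 230 bases before the start. An element of this kind, in either arrangement, occurs in 12.9% of the 27025 genes' promoters of the same length. Fyco1, a member that did not fall and whose region is not shown, also has such elements. They begin 229 bases before 1 listed start of Fyco1 and 56 bases before another. The letters ATAAAA begin 29 bases before the start in Dnase2b and 31 bases before it in Uox, and 1.93% of all promoters have them in that window. The forkhead letters GTAAACA, searched on both strands and present in 3.09% of promoters, are in none of these 3 windows. GC content was 43.6% for Dnase2b, 42.8% for Uox and 50% for Plaat3, against a median of 52.0% over all promoters. These matches describe the letters and are not measured binding sites.

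The comparison of the genotypes asks how the machinery of denucleation and organelle loss differs between transgenic and wild-type newborn lenses. Of the 10 genes, 4 fell in transgenic lenses, namely Dnase2b, Uox, Plaat3 and Alox15. Dnase1 alone rose, and 5 did not pass (limma, Benjamini-Hochberg adjusted p under 0.05 over all 18193 genes). Over all genes tested, 4.55% passed in either direction, 2.61% fell and 1.93% rose. The groups did not overlap for 8 of the 10 genes, against 28.8% of all genes. The median difference of the 10 genes, 0.037, and that of all genes, 0.011, were both near 0, since 5 members lay above 0 and 5 below. Since the genes were picked with earlier results of these data known, the counts describe the list and test nothing about it.

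**Figure D1:**
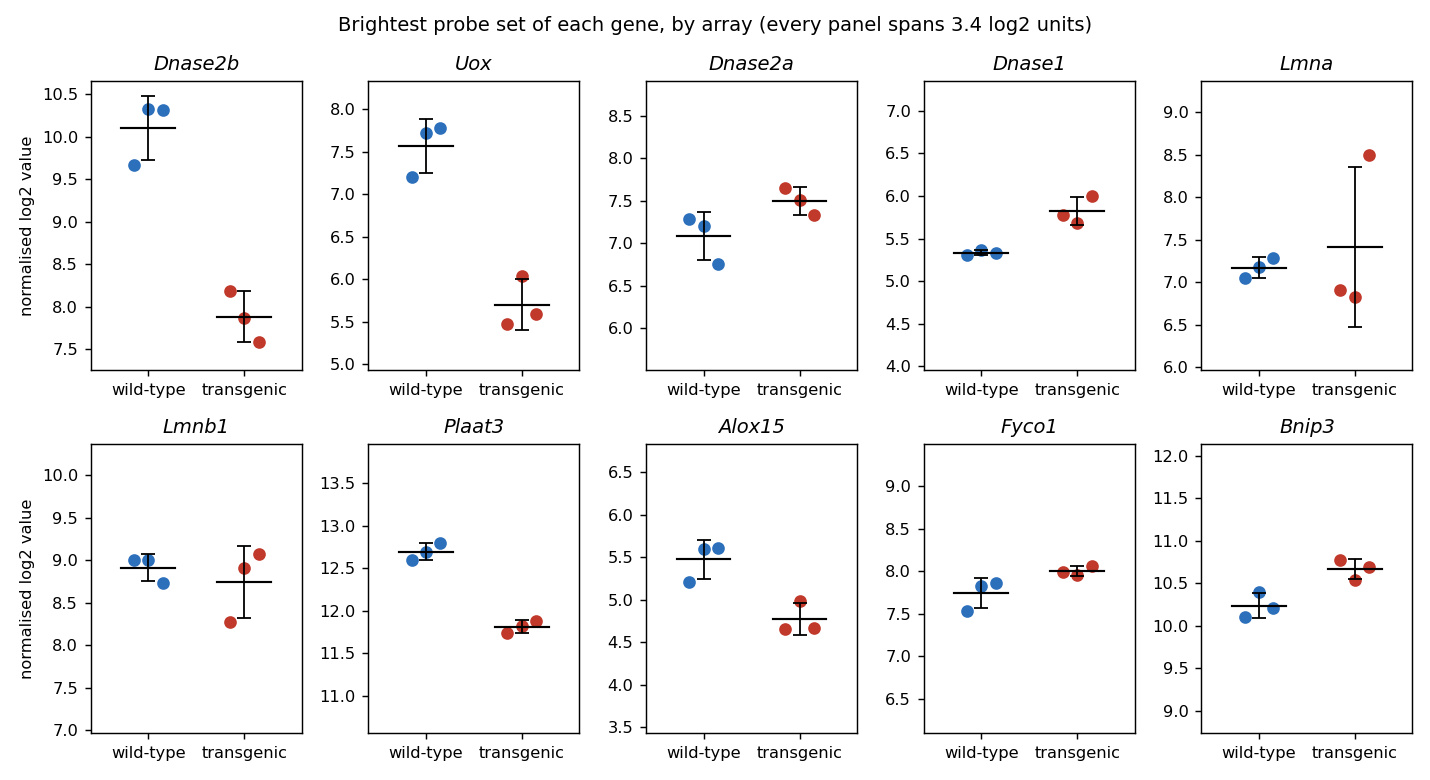
Normalised log2 value of the brightest probe set of each of the 10 genes in the 3 wild-type (blue) and 3 transgenic (red) arrays; horizontal lines are means and bars are SD (n = 3). Transgenic points lie below all wild-type points for Dnase2b, Uox, Plaat3 and Alox15, and the Lmna panel has 1 transgenic array, T3 at 8.50, far above the other 5.

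Dnase2b showed the largest difference of the 10. Its single probe set stood at 8.19, 7.87 and 7.59 in T1, T2 and T3 and at 9.67, 10.33 and 10.32 in W1, W2 and W3. The groups were separated by a wide gap, and W1 was the lowest of the wild-type arrays. The mean was 7.88 ± 0.30 in transgenic and 10.10 ± 0.38 in wild-type lenses (SD, n = 3 each). Dnase2b thus fell by 2.22 ± 0.21 on the log2 scale (SE; 95% interval -2.71 to -1.73), a 4.67-fold difference (limma adjusted p = 0.00186). Only 13 of the 18193 genes had a lower difference. Without T3 the difference was -2.07 (limma adjusted p = 0.00210).

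Uox encodes urate oxidase, which breaks down uric acid. In the RefSeq annotation of GRCm38.p6 it overlaps Dnase2b on the opposite strand, and the listed starts of both genes lie 18449 bases apart. Its values were 5.48, 6.04 and 5.59 in T1 to T3 and 7.20, 7.72 and 7.78 in W1 to W3. Again the groups did not overlap and W1 was the lowest wild-type array. Uox fell by 1.86 ± 0.20 (SE; 95% interval -2.32 to -1.41), which is 3.64-fold (limma adjusted p = 0.00280). The transgenic mean, 5.70, was close to the median over every probe set, and background may limit this fold.

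Within each array, the log2 value of Dnase2b minus that of Uox was 2.18 ± 0.46 in transgenic and 2.54 ± 0.07 in wild-type lenses (SD, n = 3 each). The difference between the 2 falls, -0.36, was smaller than the spread of the transgenic arrays (exact two-sided permutation test over 6 arrays, p = 0.4, adjusted p = 0.533 over 4 pairs of members). With 3 arrays against 3, this test cannot give a p below 0.1, so the 2 falls are not shown to be alike. Probe letters were not analysed here, so whether either probe set also reads transcripts of the overlapping gene was not tested.

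Other genes of the region did not share a fall of this size. Rpf1, the next named protein-coding gene on the Dnase2b side, differed by -0.34 (95% interval -0.57 to -0.11) and Spata1, the third on that side, by -0.54 (-0.87 to -0.22), and neither passed (limma adjusted p = 0.0986 and 0.0747). Gng5, between them, was not used here. On the Uox side Prkacb, encoding a catalytic subunit of protein kinase A, rose by 0.43 ± 0.09 (SE; limma adjusted p = 0.0439), and Ttll7 differed by 0.20 without passing (limma adjusted p = 0.553; 0.046 without W2 and 0.31 without T3). Beside the 2 large falls, then, the measured neighbours lay between -0.54 and 0.43.

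**Figure D2:**
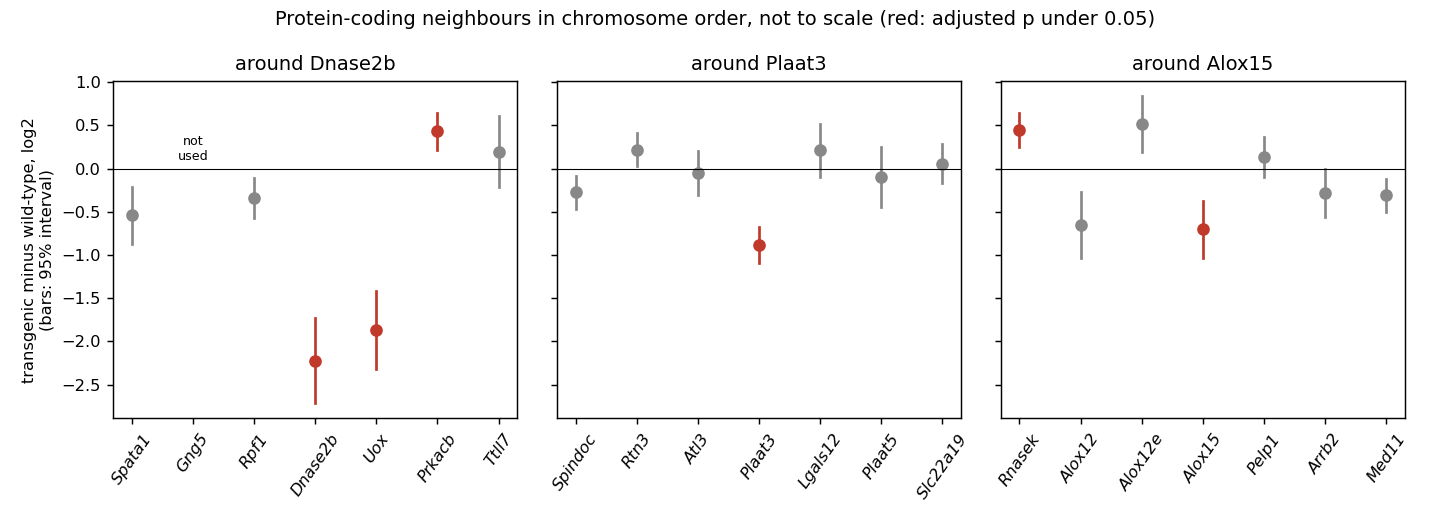
Log2 difference, transgenic minus wild-type, of Dnase2b, Plaat3 and Alox15 and of the 3 named protein-coding genes on either side in RefSeq order (spacing not to scale); bars are 95% intervals from limma and red marks adjusted p under 0.05. Around Dnase2b only Uox has a difference near its size, Plaat3 is the single red point of its row, and the points around Alox15 lie on both sides of 0.

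No fall passed the test among the other nucleases. Dnase2a encodes DNase IIα, the widely expressed lysosomal nuclease that clears DNA of engulfed cells and nuclei. It stood at 7.65, 7.51 and 7.33 in T1 to T3 and at 7.29, 7.20 and 6.76 in W1 to W3, a difference of 0.41 (95% interval 0.06 to 0.77) that did not pass (limma adjusted p = 0.166). All transgenic values were above the wild-type ones, but T3 lay only slightly above W1. W3 was the lowest array, and without it the difference was 0.25. That probe set, 1448986_x_at, bears the suffix Affymetrix gives where probes may match other sequences. A second probe set, annotated to Dnase2a and the predicted gene Gm38426, was dim, with means of 3.54 and 3.56 and a difference of -0.013.

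The change in Dnase2b was also set against that in Dnase2a within each array. The level of a probe set depends on its probes, so only the change of such a difference between genotypes has a meaning. The log2 value of Dnase2b minus Dnase2a was 0.53, 0.37 and 0.25 in T1 to T3 and 2.38, 3.13 and 3.55 in W1 to W3, a change of -2.64. Every wild-type array lay above every transgenic one, which is the most extreme arrangement possible (exact two-sided permutation test, p = 0.1, the smallest this design allows; adjusted p = 0.4).

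Dnase1 encodes the secreted neutral nuclease DNase I. It stood at 5.78, 5.69 and 6.002 in T1 to T3 and at 5.30, 5.36 and 5.33 in W1 to W3. Dnase1 rose by 0.49 ± 0.10 (SE), a 1.40-fold difference (limma adjusted p = 0.0389). Both means lay close to the median of all probe sets. The call was lost whichever array was left out (limma adjusted p from 0.0706 to 0.118), and with neural retina (0.155) or macrophage (0.0606) marker scores as a covariate. Of 18 neural retina markers 16 were below 0 in transgenic lenses, beside 8672 of all 18193 genes. Their median was -0.36, and 2 passed, Elavl4 at -0.72 and Sncg at -0.84 (limma adjusted p = 0.0117 and 0.0331). The linear sums of the 18 markers ran from 3665 to 6985 in transgenic and from 4689 to 7040 in wild-type arrays. The 18 include Dct, which is also in the pigment cell list and was highest in T2, at 10.77.

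Of 14 measured genes for nucleases and associated proteins, Dnase2b fell, Dnase1 rose and 12 did not pass. Without any 1 array Dnase2b alone passed. The mitochondrial nuclease gene Endog differed by -0.02, and Dffb, which encodes the nuclease that cuts DNA between nucleosomes in apoptosis, by -0.05. Dnase1l3, an endonuclease gene related to Dnase1, differed by -0.13. The list's median was -0.0038, beside 0.011 for all genes. The fall was thus found in 1 gene of the 14.

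Lamins form the mesh under the inner nuclear membrane that must be dissolved before a nucleus is lost. Lmna encodes lamins A and C and Lmnb1 encodes lamin B1. Neither gene passed the test. The brightest of 5 Lmna probe sets, 1421654_a_at, stood at 6.91, 6.83 and 8.50 in T1 to T3 and at 7.05, 7.18 and 7.29 in W1 to W3. T1 and T2 lay below all wild-type arrays and T3 above them. The difference was 0.24 (95% interval -0.69 to 1.17; limma adjusted p = 0.761), and -0.30 without T3 (limma adjusted p = 0.172).

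A dim Lmna probe set, 1457670_s_at, split the arrays the same way. It read 4.42, 4.42 and 7.14 in T1 to T3 and 5.03, 5.12 and 5.29 in W1 to W3. With all arrays it differed by 0.18 and did not pass (limma adjusted p = 0.905). Without T3 it was lower in transgenic lenses by -0.73 and passed (limma adjusted p = 0.0180 over every probe set), from 2 arrays at a level below the median of all probe sets. The keratinocyte marker score was 3.31 in T3 and -0.88 to -0.47 in the other arrays. The skeletal muscle score, 2.66, and the fibroblast score, 3.53, were also highest in T3. These scores were thus high in the array where these 2 probe sets were high. The part of these tissues in the Lmna values was not tested.

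The remaining Lmna probe sets gave other values. Probe set 1425472_a_at was higher in every transgenic array, at 6.96, 7.13 and 7.46 against 6.63, 6.82 and 6.68, and its difference of 0.47 (95% interval 0.17 to 0.78) did not pass (limma adjusted p = 0.0953). Without T3 the difference was 0.33. Probe sets 1426868_x_at, at 0.10, and 1452212_at, at -0.06, had groups that overlapped. The 5 probe sets of Lmna thus showed no common direction.

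Lmnb1 had 2 probe sets. The brighter, 1423521_at, read 8.27, 8.91 and 9.07 in T1 to T3 and 9.01, 9.01 and 8.73 in W1 to W3, a difference of -0.17 (95% interval -0.63 to 0.30; limma adjusted p = 0.667). T1 was the lowest array. The difference was 0.07 without T1 and -0.33 without T3. The other, 1423520_at, read 6.80, 7.57 and 7.77 against 8.17, 8.03 and 7.77. Its difference of -0.61 did not pass (limma adjusted p = 0.184), and T3 and W3 differed by little. Without T1 the difference of 1423520_at was -0.32, and without T3 it was -0.81.

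**Figure D3:**
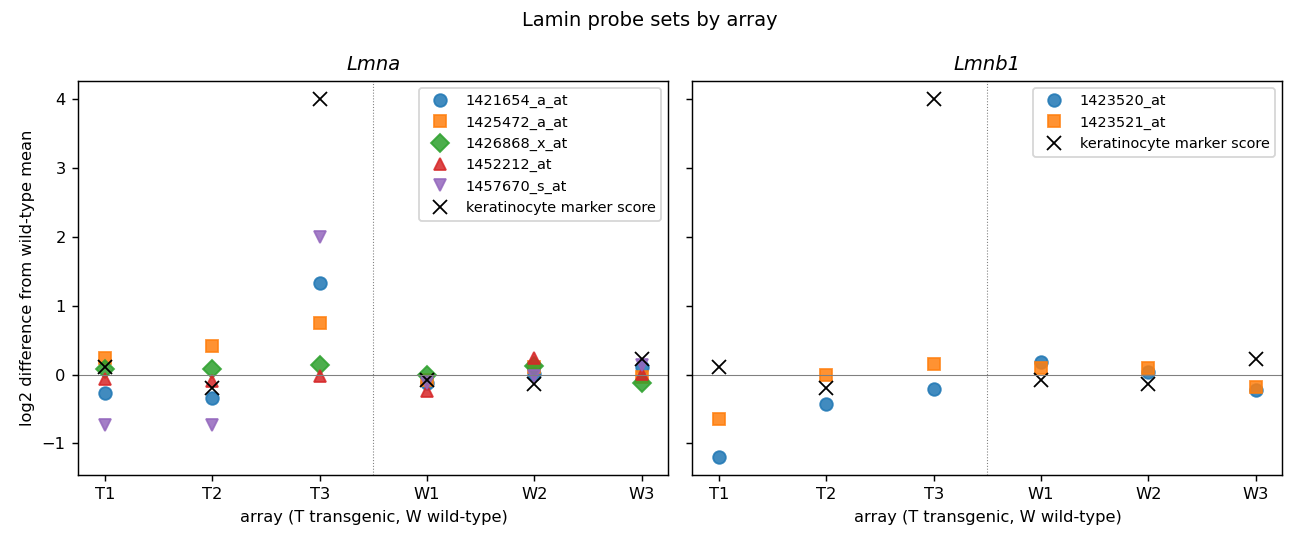
Log2 difference of each Lmna (left) and Lmnb1 (right) probe set from its own wild-type mean, by array, with the keratinocyte marker score on the same scale (crosses). In T3 the score and Lmna probe sets 1421654_a_at and 1457670_s_at are all high, while 1426868_x_at and 1452212_at stay near 0; T1 is the lowest array for both Lmnb1 probe sets.

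Of 20 genes of the nuclear lamina and envelope measured, none passed in limma at an adjusted p under 0.05, with all arrays or without any 1 of them. At an unadjusted p under 0.05 in limma, 3 of the 20 passed, where 22.4% of all genes did. Sun2, whose product ties the nucleus to the cytoskeleton, differed by 0.46, the torsin gene Tor1a by -0.27 and the emerin gene Emd by 0.22 (limma adjusted p = 0.0844, 0.147 and 0.191). Among 11 genes for the mitotic kinase that takes lamins apart and its regulators, Cdkn1c, which encodes the CDK inhibitor p57, rose by 0.39 ± 0.08 (SE; limma adjusted p = 0.0327). The remaining 10 did not pass. No gene of that list rose when any 1 array was left out, and 1, Cdc25c, fell without W3. The kinase gene Cdk1 itself differed by -0.42 (-0.27 without T1) and its phosphatase gene Cdc25c by -0.48, without passing (limma adjusted p = 0.0725 for Cdc25c).

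Plaat3 fell with both of its probe sets. Probe set 1445597_s_at stood at 11.73, 11.82 and 11.88 in T1 to T3 and at 12.59, 12.69 and 12.79 in W1 to W3. Probe set 1451611_at stood at 11.82, 11.67 and 11.56 against 12.43, 12.56 and 12.66. In both, each group was tight and the groups lay well apart. Plaat3 fell by 0.88 ± 0.09 (SE; 95% interval -1.09 to -0.67), a 1.84-fold difference (limma adjusted p = 0.00252), and the second probe set fell by 0.86 ± 0.10 (limma adjusted p = 0.00424 over every probe set).

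The relatives of Plaat3 did not pass the test. Plaat1 differed by 0.06 and Plaat5, which lies near Plaat3 on the chromosome, by -0.09 (95% interval -0.44 to 0.25). Of the other neighbours measured, Atl3 differed by -0.05, Lgals12 by 0.21 (0.07 without T2), Rtn3 by 0.22, Spindoc by -0.27 and Slc22a19 by 0.06. None of the 6 passed in limma. At an unadjusted p under 0.05, as met by 22.4% of all genes, Rtn3 and Spindoc passed.

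Alox15 was the dimmest member that passed. It stood at 4.66, 4.99 and 4.66 in T1 to T3 and at 5.22, 5.60 and 5.61 in W1 to W3, so that T2 was highest among transgenic arrays and W1 lowest among wild-type ones. Alox15 fell by 0.70 ± 0.14 (SE; 95% interval -1.03 to -0.37), which is 1.63-fold (limma adjusted p = 0.0368). The transgenic mean, 4.77, lay between the lower quartile, 4.18, and the median over every probe set, and background may limit the fold. The call was lost without T1, T2, T3, W2 or W3 (limma adjusted p from 0.0571 to 0.129), on the values as deposited (0.0567) and after adjustment for the neural retina score (0.139). Macrophages express Alox15 strongly in some tissues. None of 14 macrophage markers passed, and their linear sums ran from 1184 to 1473 in transgenic and from 956 to 1471 in wild-type arrays. With their score as a covariate Alox15 differed by -0.65 (limma adjusted p = 0.0380). The part of macrophages in the Alox15 values was not tested.

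Other lipoxygenase genes near Alox15 on the chromosome had differences on both sides of 0, and none passed. Alox12, which encodes the platelet-type 12-lipoxygenase, stood at 6.60, 6.39 and 6.56 in T1 to T3 and at 6.82, 7.19 and 7.49 in W1 to W3, a difference of -0.65 (95% interval -1.03 to -0.27; limma adjusted p = 0.0691). Alox12e, an epidermal lipoxygenase gene between them, differed by 0.51 (0.19 to 0.84; limma adjusted p = 0.0847) and was highest in T3. Alox12b and Aloxe3, lipoxygenase genes of the skin barrier, differed by 0.50 and 0.48 with all arrays and by 0.038 and 0.31 without T3. Among the next genes, Rnasek rose by 0.45 ± 0.08 (SE; limma adjusted p = 0.0299), and Pelp1, Arrb2 and Med11 differed by 0.14, -0.28 and -0.31 without passing. Without T1 Arrb2 differed by -0.17, and without T2 Pelp1 by 0.069.

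Of 21 genes of lipid hydrolysis and oxidation, Plaat3 and Alox15 fell, none rose and 19 did not pass. The count of falls was 1 without T1, T2, T3, W2 or W3 and 4 without W1. Pla2g7, which encodes a secreted phospholipase that acts on oxidised lipids, differed by -0.38 (limma adjusted p = 0.0656). Gpx4, whose product reduces lipid peroxides, differed by 0.08, and Acsl4, which loads membranes with oxidisable lipids, by -0.03. The list's median was 0.031.

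The falls of Plaat3 and Alox15 differed by -0.18 (exact two-sided permutation test, p = 0.4, adjusted p = 0.533). Background may limit the fall of Alox15, so this value is no measure of how alike they are. The log2 value of Lmna minus that of Lmnb1, whose change between genotypes alone has a meaning, was -1.34 ± 0.75 and -1.74 ± 0.27, a change of 0.41 (exact permutation p = 0.6, adjusted p = 0.6). Without T3 that change was 0.023, and without T2 it was 0.77.

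**Figure D4:**
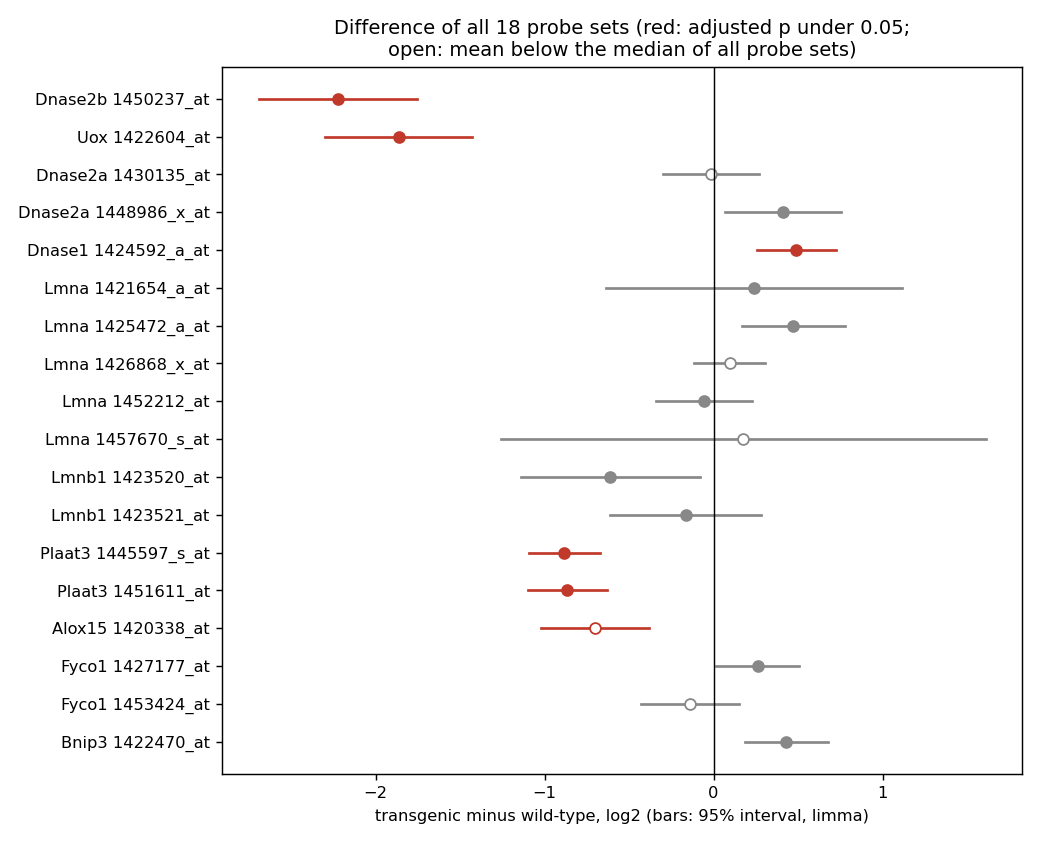
Log2 difference, transgenic minus wild-type, of all 18 probe sets of the 10 genes with 95% intervals from limma's fit of every probe set; red marks adjusted p under 0.05 and open symbols a mean below the median of all probe sets. The 5 red points left of 0 belong to Dnase2b, Uox, Plaat3 and Alox15, the red point right of 0 to Dnase1, and 2 Lmna probe sets have intervals far wider than the others.

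Over every probe set, 5 of the 18 fell and 1 rose, where 2.21% and 1.47% of all 45037 probe sets did, 3.68% in either direction. The groups did not overlap for 10 of the 18, against 27.0% of all. Several of the 18 share a gene and so are no independent members.

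Neither autophagy member passed. By their brightest probe sets both were higher in every transgenic than in every wild-type array, and groups did not overlap, in either direction, for 28.8% of all genes. Fyco1 stood at 7.99, 7.95 and 8.06 in T1 to T3 and at 7.54, 7.83 and 7.86 in W1 to W3, with no overlap and W1 the lowest array. Its difference was 0.26 (95% interval 0.01 to 0.51; limma adjusted p = 0.205), and 0.16 without W1. A dim second probe set of Fyco1, with means of 4.19 and 4.33, differed by -0.14. Bnip3 stood at 10.78, 10.54 and 10.69 against 10.10, 10.39 and 10.21, again with no overlap. Its difference was 0.43 (95% interval 0.18 to 0.68; limma adjusted p = 0.0682), and it passed only with trended robust variances (limma adjusted p = 0.0280).

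Of 27 genes of the autophagy core and its receptors, 2 rose, none fell and 25 did not pass. Retreg1, encoding a receptor for autophagy of the endoplasmic reticulum, rose by 1.18 ± 0.09 (SE; limma adjusted p = 0.000692), and passed with any 1 array left out. Sqstm1, which encodes the ubiquitin-binding receptor p62, rose by 0.50 ± 0.09 (limma adjusted p = 0.0294) and lost its call whichever array was left out (up to 0.111). Without W1, 2 genes of the list fell. Bnip3l, the relative of Bnip3, was not used here. Atg12 differed by 0.40 and Gabarapl1 by -0.44. The list's median was -0.013.

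Of 21 genes of lysosomal membrane proteins and hydrolases, the compartment in which DNase II works, 1 rose and 20 did not pass. Atp6v1a, a subunit of the proton pump that acidifies lysosomes, rose by 0.41 ± 0.08 (SE; limma adjusted p = 0.0311) and lost its call whichever array was left out. Differences were above 0 in 16 of the 21, with a median of 0.15, beside 9521 of all 18193 genes, with a median of 0.011. Lamp2 differed by 0.36, Lamp1 by 0.21, the cathepsin gene Ctsd by 0.15 and Ctsb by 0.02. Of 14 genes of purine breakdown and salvage, Uox fell, the guanine deaminase gene Gda rose by 0.48 (limma adjusted p = 0.0417) and 12 did not pass. Gda was dim, from 4.02 to 4.72, and kept its call only without W1.

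Among 17 genes tied to lens denucleation in earlier work, Foxe3 rose by 4.64 ± 0.10 (SE; limma adjusted p = 2.07e-06), 3 fell and 13 did not pass. Birc7, an apoptosis inhibitor gene, fell by 1.61, Tdrd7, an RNA granule gene, by 1.23 and Prox1, a homeobox gene of fiber differentiation, by 1.04. All 4 calls held with any 1 array left out. Hsf4, which encodes the heat shock factor of the lens that is known to act on Dnase2b, differed by -0.20 without passing, and by -0.39 to -0.085 with 1 array left out. The list's median was -0.11.

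**Figure D5:**
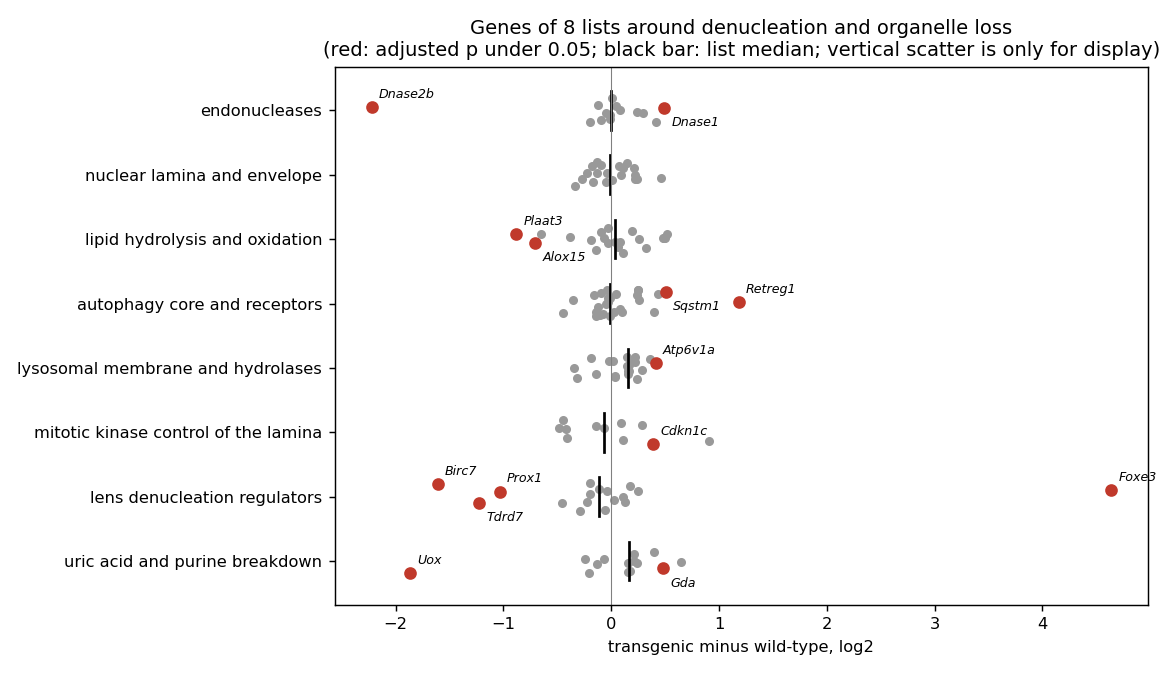
Log2 difference, transgenic minus wild-type, of each gene measured in 8 lists; red marks limma adjusted p under 0.05, grey genes that did not pass, and black bars the list medians. Medians lie between -0.11 and 0.16, and the largest falls are those of Dnase2b and Uox.

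The genes whose pattern over the 6 arrays was most like that of Dnase2b were found by the Euclidean distance between log2 differences from each gene's own wild-type mean, among 12435 genes that reached the median level in a group. They were Myo7b (distance 0.27), encoding an unconventional myosin, Prdm16 (0.43), a transcription regulator gene, Gadd45b (0.45), induced by growth arrest and DNA damage, Hmox1 (0.45), encoding a heme-degrading enzyme, and the calcium-binding protein gene Cabp5 (0.57). Their differences ran from -2.44 for Cabp5 to -2.05 for Prdm16. For Plaat3 the nearest were Rai14 (0.12), Lims1 (0.12), Paics (0.14), Washc3 (0.16) and Zfand5 (0.17), with differences from -0.95 to -0.84. For Alox15 they were Mospd4 (0.16), 1700003F12Rik (0.19), Kalrn (0.20), Arid3b (0.21) and D630024D03Rik (0.24), of which Kalrn and D630024D03Rik passed the test. With 2 groups of 3 arrays, such likeness mostly restates the size of the fall.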

How the data were processed

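Whole-lens RNA of 3 transgenic and 3 wild-type samples was labelled by in vitro transcription and hybridised to Affymetrix arrays, per the labels' protocols. Values deposited by the authors are on a log2 scale, 1 for each probe set in each sample; the scale was read from the values (2.68 to 14.8), and how they were summarised and normalised is not stated in the labels. The 64 control probe sets were set aside. Deposited upper quartiles differed by 0.120, above a limit of 0.1, so arrays were quantile normalised in limma 3.58.1 (R 4.3.3). Gene names came from the platform annotation in GEO and were brought up to date through gene identifiers in RefSeq's GRCm38.p6 table (99.4% of 34945 single-symbol probe sets matched; 932 had several symbols and 9160 none here). A gene was represented by its brightest single-symbol probe set. Genotypes were compared with lmFit and eBayes, adjusted by Benjamini-Hochberg over all 18193 genes, threshold 0.05; probe sets that did not represent their gene were tested in a second fit over all 45037. SEs and 95% intervals are limma's moderated ones. The fit was also run on simulated data with independent noise. Those data held no array like T3, so that run does not cover the effect of such an array.

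A list score is the median over its members of the difference from each member's mean over the 6 arrays. In all, 4 pairs of members were compared by exact permutation over arrays. Named genes were the members, every called gene of each list or else the genes with the smallest p, 3 neighbours a side and 5 nearest patterns. Further list genes named for background were chosen after their values were seen. The members, lists and alternatives were chosen with earlier results of these data known. Files name no genome build, so only promoter positions are given. The model has no replicate block. Sequences of members without an entry in the promoter table were not used here.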

Additional observations from a re-analysis of the deposited data

How the results depend on the processing

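The falls of Dnase2b, Uox and Plaat3 passed under each of the 15 alternatives run for them. Dnase2b ran from -2.44 to -2.07, Uox from -2.05 to -1.75 and Plaat3 from -0.96 to -0.83. The count of members that fell was 3 to 4 and of member probe sets 4 to 5. The member that rose was lost (0 of 10, and 0 of 18 probe sets) with any 1 array left out, with the replicate block and with either marker score as a covariate, and 2 rose with trended robust variances. The differences between members in the size of the change kept their sign.

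Over all genes, 352 rose and 475 fell. With array weights 599 and 790 did, with adjustment for the retina score 74 and 217, and with the replicate block 69 and 154. With 1 array left out, and so fewer arrays to test, 70 to 249 rose and 156 to 385 fell. Of all probe sets, 661 rose and 995 fell, against 1063 and 1504 with array weights, 128 and 424 with the retina score, 230 and 483 with the replicate block, and 131 to 393 and 302 to 858 with 1 array left out. Deviations of same-numbered arrays from their group means correlated at -0.05, 0.08 and 0.03. The labels name no pairing, and whether same-numbered samples share a litter or a day was not tested. With the replicate block, adjusted p was 0.0948 for Dnase1 and 0.0622 for Alox15 in limma.

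Signs turned only for differences that did not pass with all arrays. Lmna ran from -0.30 to 0.53 with 1 array left out. Its probe set 1457670_s_at ran from -0.73 to 0.63, and was -0.032 with array weights and -0.057 with the retina score, and 1452212_at ran from -0.18 to 0.064. Lmnb1 ran from -0.33 to 0.074 with 1 array left out and was 0.073 with the retina score. The dim probe set of Dnase2a ran from -0.14 to 0.059 and that of Fyco1 was 0.039 with the retina score. The cause was not tested. Alox15 has no value with dim probe sets left out. With so few arrays, the precision of each value is limited.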

Other observations

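Among the wild-type arrays, W1 stood nearest to the transgenic arrays in each of the 4 members that fell. Over all 475 genes that fell, W1 was the lowest wild-type array in 270 (56.8%), W2 in 119 and W3 in 86. On the values as deposited W1 was the lowest in 224 of the 475 (47.2%). Among 17366 genes that did not pass, W1 was the lowest in 41.1%. Among the 352 genes that rose, W1 was the highest wild-type array in 89 (25.3%). W1 also had the lowest deposited lower quartile, 4.11, and the highest upper quartile, 7.21, of the 6 arrays, and its neural retina score, 0.47, was the highest. The part of these values in the falls was not tested.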
